A study of Mus musculus with 8 samples.

Results

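The genes described here encode growth factors and receptors known for protecting photoreceptors: the ligands *Fgf2*, *Fgf1*, *Bdnf*, *Gdnf*, *Igf1* and *Hbegf*, and the receptors *Fgfr1*, *Ntrk2* and *Ngfr*. They were chosen by name, and all 9 of 9 had a probe set that the platform annotation gives to that gene alone, among 19938 genes and 28853 probe sets in the table. RNA from the retinas of C57BL/6J mice, a pigmented inbred strain, was hybridized to 8 Affymetrix Mouse Gene 1.0 ST arrays, whose probe sets gather probes from many exons of a gene. There were 4 groups: the inferior retina of mice kept in 75% oxygen for 14 days, the inferior retina of control mice in normoxia, the superior retina of exposed mice and the superior retina of control mice, with 2 arrays each. All mice were raised in dim cyclic light (12 h at 5 lux), exposure began at postnatal day 83 to 90, controls were matched to exposed mice in age at death, and each sample pooled the superior or the inferior retina of 2 animals (1 male and 1 female). Nothing in the labels links same-numbered samples of different groups to the same animals, so samples were treated as unpaired. Superior and inferior samples of the same oxygen condition could still share animals. The p-values rest on the spread among pooled samples, not among single animals.

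In the retina, fibroblast growth factors signal through receptor tyrosine kinases such as the product of *Fgfr1*, neurotrophins through TrkB (*Ntrk2*) and the p75 receptor (*Ngfr*), GDNF through a co-receptor and RET, insulin-like growth factor through its own receptor kinase and HB-EGF through the EGF receptor. Many of these receptors lie on Muller cells, the radial glia that span the retina, and injected FGF2, BDNF or GDNF slows photoreceptor loss in rodent models. Stressed and degenerating retinas are known for raised *Fgf2*.

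Values are log2 signals, so a difference of 1 is a doubling, and they allow comparison of groups for a gene but not of levels between genes. Differences were tested with limma, whose estimate of each gene's spread borrows from the whole table, and a call is a Benjamini-Hochberg adjusted p under 0.05 over all 28853. Rod genes had a mean log2 signal of 12.27 to 12.65 over 7 genes over the 8 arrays, lowest on the hyperoxia inferior arrays (12.49 and 12.27). Array medians lay from 6.98 to 7.05. Lens transcripts stood apart on control inferior replicate 2, at a mean of 10.54 over 13 genes, against 6.23 to 7.41 on the other arrays. In such tissue samples, fewer cells of a type and less RNA per cell cannot be told apart.

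*Fgf2*, the basic fibroblast growth factor, was the member that changed with hyperoxia, and its locus carries 2 further transcribed genes on the opposite strand. In the gene table of GRCm38.p6, *Fgf2os*, a long noncoding RNA, overlaps the start of *Fgf2*, and *Nudt6*, which encodes a nudix hydrolase and is also known as an antisense FGF2 gene, overlaps its end. The 250 bases before the annotated start of each gene (RefSeq, GRCm38.p6) are shown because these 3 are the transcripts of the locus whose values are compared next. *Fgf2* is at chr3:37348403-37348652 (plus strand), *Fgf2os* at chr3:37349842-37350091 (minus strand) and *Nudt6* at chr3:37419597-37419846 (minus strand), each read 5′ to 3′ along its own strand. Capitals mark the letters TGACNNNGC on either strand, the core of the antioxidant response element, a motif picked after the sequences were seen.
Fgf2: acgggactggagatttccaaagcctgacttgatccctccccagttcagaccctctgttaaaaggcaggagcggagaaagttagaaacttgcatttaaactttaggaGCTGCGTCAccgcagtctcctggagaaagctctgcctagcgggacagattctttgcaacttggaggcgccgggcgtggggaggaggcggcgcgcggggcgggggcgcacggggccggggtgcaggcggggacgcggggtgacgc
Fgf2os: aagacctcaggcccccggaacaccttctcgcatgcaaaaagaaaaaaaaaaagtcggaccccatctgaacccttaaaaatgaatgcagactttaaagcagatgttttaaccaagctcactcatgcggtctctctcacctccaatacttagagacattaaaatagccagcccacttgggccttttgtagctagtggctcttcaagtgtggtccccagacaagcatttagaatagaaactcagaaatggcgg
Nudt6: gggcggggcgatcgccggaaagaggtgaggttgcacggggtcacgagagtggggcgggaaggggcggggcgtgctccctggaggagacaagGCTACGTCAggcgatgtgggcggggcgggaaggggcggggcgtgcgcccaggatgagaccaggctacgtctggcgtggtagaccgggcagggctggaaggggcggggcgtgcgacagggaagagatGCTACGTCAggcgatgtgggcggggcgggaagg

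The window of *Fgf2* held 1 such match, 144 bases before the start, that of *Nudt6* held 2 and that of *Fgf2os* held 0. Of 32851 windows of this length, 10.2% held a match, and the *Fgf2* and *Nudt6* windows were richer in G and C (62.4% and 71.6%) than the median window (52.4%). The GC box GGGCGG was found 1 time in the *Fgf2* window, 9 times in that of *Nudt6* and 0 times in that of *Fgf2os* (32.7% of all windows). The STAT motif TTCNNNGAA (7.02%), the AP-1 motif TGANTCA (6.75%) and the hypoxia response core ACGTG (16.6%) were in none of these 3 windows, both strands read. Of the 9 members, 6 had an entry in the promoter table, and in the windows of *Bdnf*, *Gdnf*, *Igf1*, *Ngfr* and *Ntrk2* TGACNNNGC was not found. A match describes letters in this window and shows no binding.

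In the inferior retina *Fgf2* rose about 3-fold with hyperoxia. Its log2 signal was 9.72 and 9.57 on the hyperoxia arrays, against 8.07 and 7.95 on the control arrays. Both exposed arrays lay far above both controls (38.7% of all probe sets did not overlap here), with means of 9.64 ± 0.10 in hyperoxia and 8.01 ± 0.084 in control retinas (SD, n = 2 each). The log2 change was 1.63 (standard error 0.093, 95% interval 1.42 to 1.84, adjusted p = 0.00034), a fold ratio of 3.10. By size of rise it ranked 12 of all probe sets. *Fgf2* was the 1 member of 9 called, while 0.492% of all probe sets were called in this comparison. With any 1 of the 8 arrays left out the change ran from 1.56 to 1.71 and stayed past the test (adjusted p from 0.00108 to 0.00639), but by the methods' t-test, which uses each gene's own spread, 0 members passed after adjustment (*Fgf2* adjusted p = 0.114).

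The *Fgf2* signals of the superior retina were 8.64 and 8.67 on the hyperoxia arrays, against 8.10 and 8.14 on the control arrays. The groups did not overlap, as for 35.9% of all probe sets here, and the means were 8.66 ± 0.023 in hyperoxia and 8.12 ± 0.029 in control retinas (SD, n = 2 each). The log2 difference was 0.54 (standard error 0.093, 95% interval 0.33 to 0.75), a fold ratio of 1.455, and it missed the threshold (unadjusted p = 0.000321, adjusted p = 0.302). By limma 0 of 9 members were called in this comparison, as against 0.0173% of all probe sets. At an unadjusted p under 0.05 stood 1 member and 5.59% of all probe sets, and by the methods' t-test 0 were called after adjustment. Genes of the retinal pigment epithelium, a neighbouring tissue, stood higher on the same arrays, with 0 of 11 past the test by limma and 8 at an unadjusted p under 0.05: their mean log2 signal was 8.60 and 8.76 in the hyperoxia superior and 7.35 and 7.99 in the control superior arrays. Genes of microglia and macrophages and of reactive glia were higher on these arrays too, with 11 of 14 and 5 of 8 at an unadjusted p under 0.05, 1 of each called and median log2 differences of 0.51 and 0.32. The part of these 3 groups of genes in the *Fgf2* difference was not tested.

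Between regions, the exposed retinas differed and the control retinas did not pass the test. After hyperoxia *Fgf2* was higher by 0.99 in inferior than superior samples (standard error 0.093, 95% interval 0.77 to 1.20, adjusted p = 0.0117), a fold of 1.98. It was again the 1 member called, where 0.139% of all probe sets were called. That call was lost without hyperoxia inferior replicate 1 (adjusted p = 0.115), hyperoxia inferior replicate 2 (adjusted p = 0.101) or hyperoxia superior replicate 2 (adjusted p = 0.127), with differences of 0.91 to 1.06 over all omissions, and by the methods' t-test (adjusted p = 0.382). In control retinas the inferior mean was 0.10 below the superior one (log2 difference -0.10, 95% interval -0.32 to 0.11, adjusted p = 0.958), without overlap of the arrays, as for 34.2% of all probe sets. From high to low the 4 group means thus ran from hyperoxia inferior through hyperoxia superior to control superior and control inferior. The step from hyperoxia superior to control superior and that between the controls did not pass the test.

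The log2 change in the inferior retina minus that in the superior was 1.09 (standard error 0.13, 95% interval 0.79 to 1.39). The difference had an unadjusted p of 2.39e-05 and an adjusted p = 0.23, so it missed the threshold over all probe sets, of which 0.00347% passed. It passed with a variance trend (adjusted p = 0.0253). By limma 0 of 9 members were called for this difference. At an unadjusted p under 0.05 stood 1 member and 6.04% of all probe sets. The methods' t-test gave *Fgf2* an unadjusted p of 0.00038, below the paper's cut-off, and called 0 members after adjustment. Averaged over the regions, *Fgf2* was 1.09 higher in hyperoxia than in control retinas (adjusted p = 0.000375), with 0.568% of all probe sets called, and this call was lost by the methods' t-test (adjusted p = 0.107). Averaged over oxygen conditions the inferior retina exceeded the superior by 0.44 (adjusted p = 0.12), where 0.0173% were called.

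**Figure D1:**
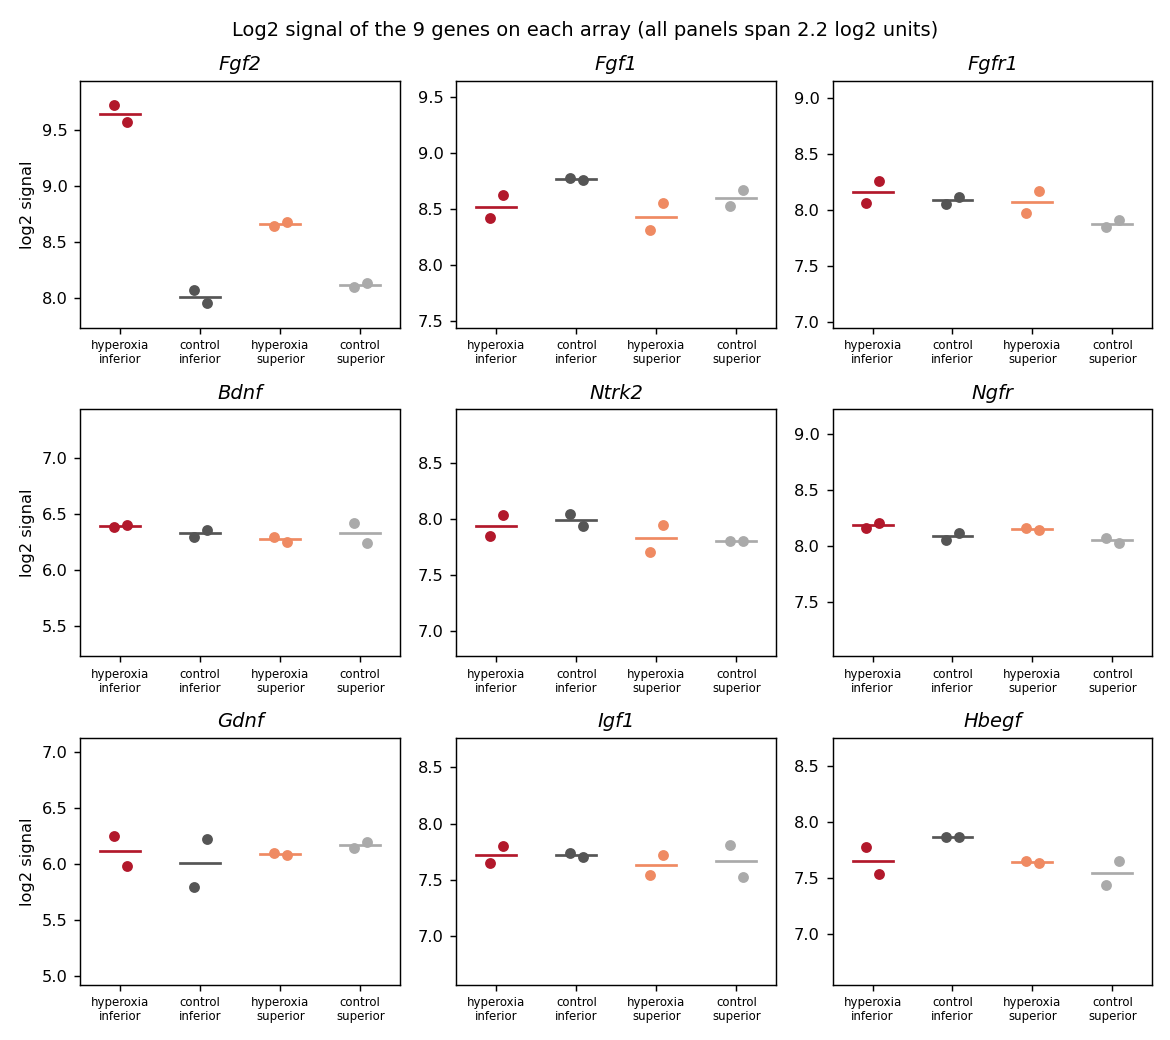
Log2 signal (vertical axes, each spanning 2.2 units) of the 9 genes on each of the 8 arrays by group (horizontal axes); points are arrays and lines group means. *Fgf2* reaches 9.72 and 9.57 in the hyperoxia inferior retina, against 8.07 and 7.95 in the control inferior retina, while the groups of the other genes lie close together.

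The 2 opposite-strand genes at the *Fgf2* locus were examined after their values were seen. *Fgf2os* had log2 signals of 7.83 and 7.40 in the hyperoxia inferior retina, against 6.40 and 6.04 in the control inferior retina. It rose by 1.39 (standard error 0.19, adjusted p = 0.0207). Superior values were 6.66 and 6.52 in hyperoxia and 6.65 and 6.24 in control samples, which overlapped (log2 difference 0.14, adjusted p = 0.972). *Nudt6* stood at 7.96 and 7.89 in the hyperoxia inferior retina, against 7.16 and 7.17 in the control inferior retina, and rose by 0.76 (standard error 0.0883, adjusted p = 0.00938). *Nudt6* in the superior retina had 7.37 and 7.25 in hyperoxia and 6.97 and 7.03 in control samples (log2 difference 0.31, unadjusted p = 0.0069, adjusted p = 0.711). All 3 transcripts of the locus were thus called in the inferior retina, where 0.43% of all probe sets were called higher. With hyperoxia inferior replicate 1, replicate 2 of that group or control inferior replicate 2 left out, *Fgf2os* (adjusted p = 0.113, 0.061 and 0.0798) and *Nudt6* (adjusted p = 0.0787, 0.0772 and 0.0519) missed the threshold, as they did with only the arrays compared (adjusted p = 0.121 and 0.0902) and by the methods' t-test (adjusted p = 0.348 and 0.119). Whether any of these probe sets also reads RNA of the other strand was not tested.

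By likeness of pattern over the 8 arrays, the 3 genes closest to *Fgf2* among 13884 were *Stat3*, a transcription factor that carries cytokine signals (Pearson r = 0.996), *Antxr2*, the anthrax toxin receptor 2 gene (r = 0.993), and *Klhl29*, of the kelch-like family (r = 0.991). These points share the 4 groups, so r describes the differences between group means more than single arrays. Because the genes were picked for this likeness, their changes below are not separate support. *Stat3* had log2 signals of 10.35 and 10.23 in the hyperoxia inferior and 9.09 and 8.98 in the control inferior retina, and means of 9.55 ± 0.017 in the hyperoxia superior and 9.03 ± 0.038 in the control superior retina (SD, n = 2 each). Its log2 changes were 1.26 in the inferior retina (adjusted p = 0.000931) and 0.53 in the superior (adjusted p = 0.302), beside 1.63 and 0.54 for *Fgf2*. *Antxr2* had changes of 1.16 (adjusted p = 0.00168) and 0.36 (adjusted p = 0.703), and *Klhl29* of 1.14 (adjusted p = 0.00168) and 0.24 (adjusted p = 0.869), inferior before superior. By the methods' t-test the inferior changes of these 3 genes missed the threshold (adjusted p from 0.114 to 0.12).

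**Figure D2:**
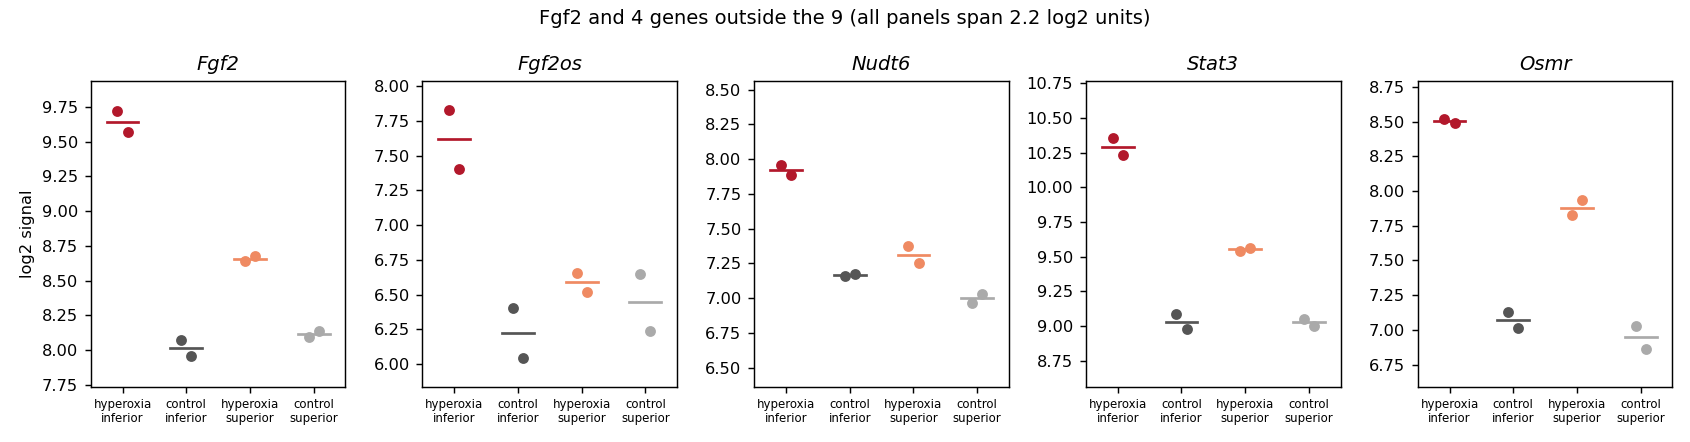
Log2 signal (vertical axes, each spanning 2.2 units) of *Fgf2*, of *Fgf2os* and *Nudt6* from the opposite strand of its locus, of *Stat3* and of *Osmr* on each array by group (horizontal axes); points are arrays and lines group means. In each panel the hyperoxia inferior arrays are the highest, and *Fgf2os* overlaps between groups in the superior retina.

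Genes listed as markers of glia under stress and of phagocytes moved with *Fgf2*. The glia list includes *Edn2*, whose rise in damaged retinas the paper, citing earlier work, places in photoreceptors. Of 8 genes of reactive glia and astrocytes, 5 rose in the inferior retina by limma (median log2 change 1.27), where 0.43% of all probe sets were called higher. Their mean log2 signal was 8.31 and 8.42 in hyperoxia and 7.02 and 7.17 in control samples. Of 14 genes of microglia and macrophages, 12 rose there (median 1.44), with means of 8.24 and 8.33 in hyperoxia and 6.92 and 6.93 in control samples. Both lists hold genes that the paper picked from these same arrays because their response to hyperoxia differed between regions. In the glia list they are *Gfap*, *Timp1*, *Lcn2* and *Edn2*. In the phagocyte list they are *C1qa*, *C1qb*, *C1qc*, *Cd68*, *Ly86*, *Laptm5*, *Ctss*, *Fcer1g*, *Tyrobp* and *Csf1r*, most of the list. The counts above are thus not independent support. The methods' t-test called 1 gene of each list after adjustment. These were *Edn2* (adjusted p = 0.014), which encodes endothelin 2, and *Csf1r* (adjusted p = 0.0463), the receptor for colony-stimulating factor 1.

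In the superior retina the reactive glia genes averaged 7.61 and 7.72 in hyperoxia and 7.17 and 7.07 in control samples, and the phagocyte genes 7.36 and 7.34 in hyperoxia and 6.83 and 6.80 in control samples, without overlap. The genes called there were *Gfap*, the glial intermediate filament gene (log2 change 1.25), and *Ly86*, a myeloid surface protein gene (1.11), each with an adjusted p of 0.0296. *Gfap* was not called with any 1 array left out, and *Ly86* was called only where the omitted array was a control inferior one. Neither passed by the methods' t-test (adjusted p = 0.593 for each) or with a block for replicate number (adjusted p = 0.106 and 0.105), and *Gfap* also missed with only the arrays compared (adjusted p = 0.0832). Between the regions of exposed retinas, 4 of 8 reactive glia genes and 10 of 14 phagocyte genes were higher in the inferior retina by limma (medians 0.70 and 1.01), as *Fgf2* was. Of all probe sets 0.139% were called there. The paper picked most of these phagocyte genes, and *Gfap*, *Timp1*, *Lcn2* and *Edn2* of the reactive glia, for a regional difference on the same arrays. The counts are thus not independent support. With the first or the second hyperoxia inferior array left out, or the second hyperoxia superior array, these counts were 1, 1 and 0 for reactive glia and 1, 0 and 0 for phagocytes. Without any 1 of the other 5 arrays they were 2 for reactive glia and 8 to 10 for phagocytes. Both were 0 by the methods' t-test, and 2 reactive glia genes were called with a block for replicate number or with only the arrays compared.

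Of 10 Muller cell genes in the inferior retina, *Crym*, which encodes mu-crystallin, rose by 1.45 (adjusted p = 0.0044). *Glul*, the glutamine synthetase of Muller cells, fell by 0.70 (adjusted p = 0.0416), and the other 8 did not pass. The paper picked *Crym* too from these arrays for a regional difference in its response, so its call is not independent support. By the methods' t-test and with only the arrays compared, *Crym* (adjusted p = 0.255 and 0.0772) and *Glul* (adjusted p = 0.323 and 0.136) missed the threshold. *Glul* also missed it with quantile normalization (adjusted p = 0.0503), with the replicate number as a block (adjusted p = 0.0572) and without any 1 of the inferior or control arrays (adjusted p from 0.10 to 0.172). Of 7 rod genes, 0 passed by limma, with a median log2 difference of -0.16 over the list. At an unadjusted p under 0.05 stood 2 of them, against 9.39% of all probe sets. These were *Nrl* (-0.41, adjusted p = 0.136) and *Cnga1* (-0.31, adjusted p = 0.507). The part of glia, phagocytes and rods in the *Fgf2* result was not tested.

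The other 8 members gave no call in any of the 7 comparisons. In the inferior retina their log2 differences between hyperoxia and control ran from -0.25 (*Fgf1*) to 0.11 (*Gdnf*), and all 95% intervals lay between -0.51 and 0.44, so changes of the size seen for *Fgf2* were outside them. The adjusted p-values ran from 0.579 to 0.995, and 0 had an unadjusted p under 0.05, against 9.39% of all probe sets. In the superior retina the differences ran from -0.17 (*Fgf1*) to 0.19 (*Fgfr1*), within intervals from -0.43 to 0.44.

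**Figure D3:**
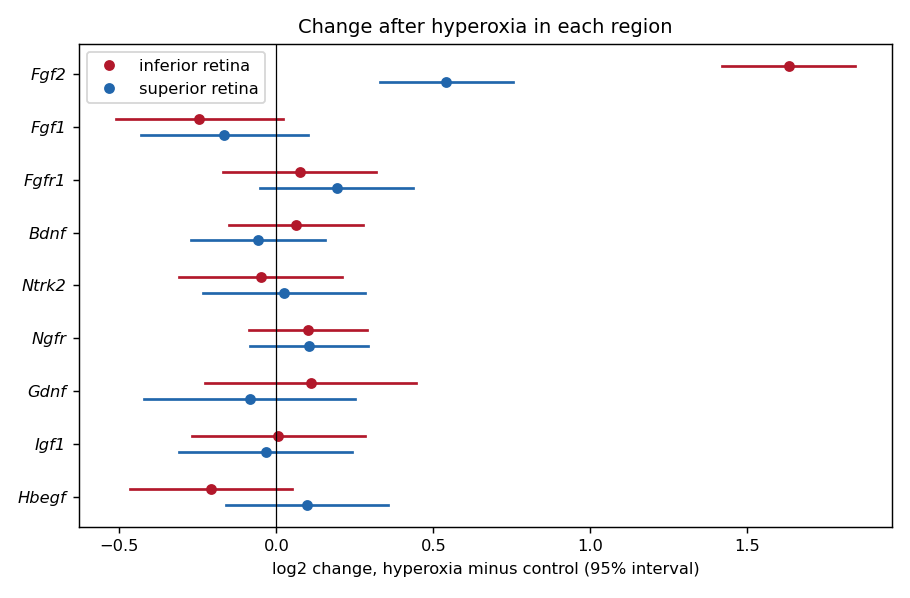
Log2 change between hyperoxia and control (horizontal axis) for each of the 9 genes (vertical axis) in the inferior (red, upper) and superior (blue, lower) retina; bars are 95% intervals from limma. *Fgf2* is at 1.63 (inferior) and 0.54 (superior), and for the other 8 genes every interval includes 0.

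*Fgf1*, the acidic fibroblast growth factor, is abundant in retinal neurons and binds the same receptors as *Fgf2*. Its signals were 8.42 and 8.62 in the hyperoxia inferior and 8.78 and 8.76 in the control inferior retina. Superior signals were 8.31 and 8.56 in hyperoxia and 8.53 and 8.67 in control samples. The exposed arrays were lower in the inferior retina, where 38.7% of all probe sets did not overlap. They overlapped the controls in the superior. Averaged over regions the log2 difference was -0.21 (95% interval -0.39 to -0.0169, unadjusted p = 0.036, adjusted p = 0.506), so it did not pass over all probe sets.

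*Hbegf*, heparin-binding EGF-like growth factor, had signals of 7.87 and 7.87 in the control inferior retina, against 7.44 and 7.66 in the control superior retina. This regional difference of 0.32 in control retinas (95% interval 0.0603 to 0.58) had an unadjusted p of 0.0213 and an adjusted p = 0.916, and of all probe sets 5.3% had an unadjusted p under 0.05 there. In exposed mice the signals were 7.78 and 7.54 in the inferior and 7.66 and 7.64 in the superior retina, and these arrays overlapped (log2 difference 0.0132, 95% interval -0.25 to 0.27). By limma 0 of 9 members, and 0 of all probe sets, were called between the regions of control retinas; 1 member had an unadjusted p under 0.05, and by the methods' t-test 0 were called after adjustment.

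The neurotrophin *Bdnf* spanned 6.24 to 6.42 over all 8 arrays. Its log2 difference between hyperoxia and control was 0.0617 in the inferior retina (95% interval -0.15 to 0.27) and -0.0583 in the superior (95% interval -0.27 to 0.15). *Gdnf*, which signals through RET, spanned 5.80 to 6.26 and had the widest residual spread of the 9, with an SD of 0.18 against a median of 0.11 over all probe sets. Its control inferior arrays were 5.80 and 6.22, so that its interval in the inferior retina, -0.23 to 0.44, was the widest too. *Igf1*, a growth factor that microglia also make, had 7.65 and 7.80 in the hyperoxia inferior and 7.74 and 7.70 in the control inferior retina. Its difference there was 0.0054 (95% interval -0.27 to 0.28). The table holds no detection calls, so whether the signals of *Bdnf* and *Gdnf* exceed background is not known.

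Among the receptors, *Fgfr1* had signals of 8.06 and 8.26 in the hyperoxia inferior and 8.05 and 8.12 in the control inferior retina. Its superior samples had 7.97 and 8.17 in hyperoxia and 7.84 and 7.91 in control samples. These did not overlap, as for 35.9% of all probe sets (log2 difference 0.19, 95% interval -0.0525 to 0.44, adjusted p = 0.906). The exposed arrays of *Ngfr*, the p75 neurotrophin receptor, were 8.16 and 8.21 in the inferior and 8.16 and 8.14 in the superior retina, against control arrays of 8.06 and 8.11 in the inferior and 8.07 and 8.03 in the superior retina. All 4 exposed arrays thus lay above all 4 controls, as 5.49% of all probe sets did in either direction, but the step was small: 0.10 over both regions (95% interval -0.0311 to 0.24, adjusted p = 0.664), from the least variable of the 9 genes (residual SD 0.0308). *Ntrk2*, the BDNF receptor, spanned 7.70 to 8.05, with differences of -0.0502 in the inferior (95% interval -0.31 to 0.21) and 0.024 in the superior retina (95% interval -0.23 to 0.28). Between 2 groups of 2 arrays, an exact permutation test of a single gene could not go below p = 0.333.

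Wider lists around each pathway were read in the inferior retina, where the median change over all probe sets was 0.0054. Of all probe sets 9.39% had an unadjusted p under 0.05 there. Of 22 FGF family genes, listed together as ligands though not all are secreted, 1 was called, *Fgf2* itself. At an unadjusted p under 0.05 stood 4, and the median log2 change over the list was -0.0552. *Fgf13* and *Fgf11*, which act inside neurons and are not secreted, had the largest other changes, at -0.61 (adjusted p = 0.148) and -0.39 (adjusted p = 0.382). The remaining gene under that level was *Fgf5*, a secreted ligand, at 0.25 (adjusted p = 0.471), named after its value was seen. *Fgf13* signals were 7.56 and 7.68 in hyperoxia and 8.34 and 8.11 in control samples, without overlap, as for 38.7% of all probe sets. Of 12 FGF receptors and co-receptors 0 were called and 0 had an unadjusted p under 0.05 (median -0.0604). The largest values were those of *Fgfr2*, a receptor (-0.44, adjusted p = 0.579), and *Sdc2*, a heparan sulfate co-receptor (-0.21, adjusted p = 0.579). For *Fgfr2* the value rested on control inferior replicate 2, the array with high lens transcripts: its signals were 6.61 and 6.70 in hyperoxia, against 6.75 and 7.44 in control samples, and the change was -0.0965 without that array.

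Of 18 adaptors and feedback genes downstream of FGF receptors, 0 were called by limma, with a median of -0.0385. At an unadjusted p under 0.05 stood 2, against 9.39% of all probe sets. These were *Spry4*, a feedback inhibitor of receptor kinase signalling that FGF is known to induce, at -0.34 (adjusted p = 0.203), and *Shc1*, an adaptor of receptor kinases, at 0.33 (adjusted p = 0.444). *Spry4* signals were 6.61 and 6.49 in hyperoxia and 6.88 and 6.91 in control samples.

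In the neurotrophin list 0 of 11 measured genes were called (median -0.0108). At an unadjusted p under 0.05 stood 1 gene, against 9.39% of all probe sets. It was the TrkC gene *Ntrk3*, at -0.23 (adjusted p = 0.432), beside the p75 partner *Sort1* at -0.18 (adjusted p = 0.658). Of 10 GDNF family genes 0 were called and 1 had an unadjusted p under 0.05 (median -0.0153). It was *Gfra2*, the co-receptor for neurturin, with 7.65 and 7.56 in hyperoxia and 8.19 and 7.92 in control samples, a difference of -0.46 (adjusted p = 0.267); the ligand gene *Nrtn* had 0.15 (adjusted p = 0.745).

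Of 15 IGF genes 0 were called (median -0.0507). At an unadjusted p under 0.05 stood 1, *Igf2*, at -0.26 (adjusted p = 0.449), against 9.39% of all probe sets. The largest value was that of *Igfbp7*, a binding protein, at -0.92 (adjusted p = 0.742), and it rested on control inferior replicate 2. Its signals were 8.83 and 9.33 in hyperoxia, against 8.57 and 11.45 in control samples, where the lens genes averaged 6.23 and 10.54. The change was 0.52 without that array and -2.36 (adjusted p = 0.00253) without control inferior replicate 1. Of 17 EGF family genes 0 were called and 2 had an unadjusted p under 0.05 (median 0.0294). *Btc*, the ligand betacellulin, had 8.98 and 8.63 in hyperoxia and 8.39 and 8.43 in control samples (0.39, unadjusted p = 0.0116, adjusted p = 0.322). The other gene under that level was *Erbb3*, a neuregulin receptor (0.26, unadjusted p = 0.0372, adjusted p = 0.493), named after its value was seen, while *Erbb4*, another receptor, had a difference of -0.34 (unadjusted p = 0.0698, adjusted p = 0.583).

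Of 20 other survival factors and receptors, 1 was called and 6 had an unadjusted p under 0.05, against 9.39% of all probe sets (median -0.0364). The number called was 2 when probe sets with a mean under 6 were left out and with a variance trend, and 0 by the methods' t-test. Genes under that level other than *Osmr* are not named here. *Osmr*, which encodes the oncostatin M receptor, stood at 8.52 and 8.49 in the hyperoxia inferior retina, against 7.13 and 7.01 in the control inferior retina, and rose by 1.43 (standard error 0.0976, adjusted p = 0.00082). Its superior signals were 7.82 and 7.94 in hyperoxia and 7.03 and 6.86 in control samples, a rise of 0.93 (adjusted p = 0.0457). That call in the superior retina was lost with any 1 of the 8 arrays left out (adjusted p from 0.065 to 0.673), with only the arrays compared (adjusted p = 0.0951), with the replicate number as a block (adjusted p = 0.122) and by the methods' t-test (adjusted p = 0.593), which also lost the call in the inferior retina (adjusted p = 0.114).

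**Figure D4:**
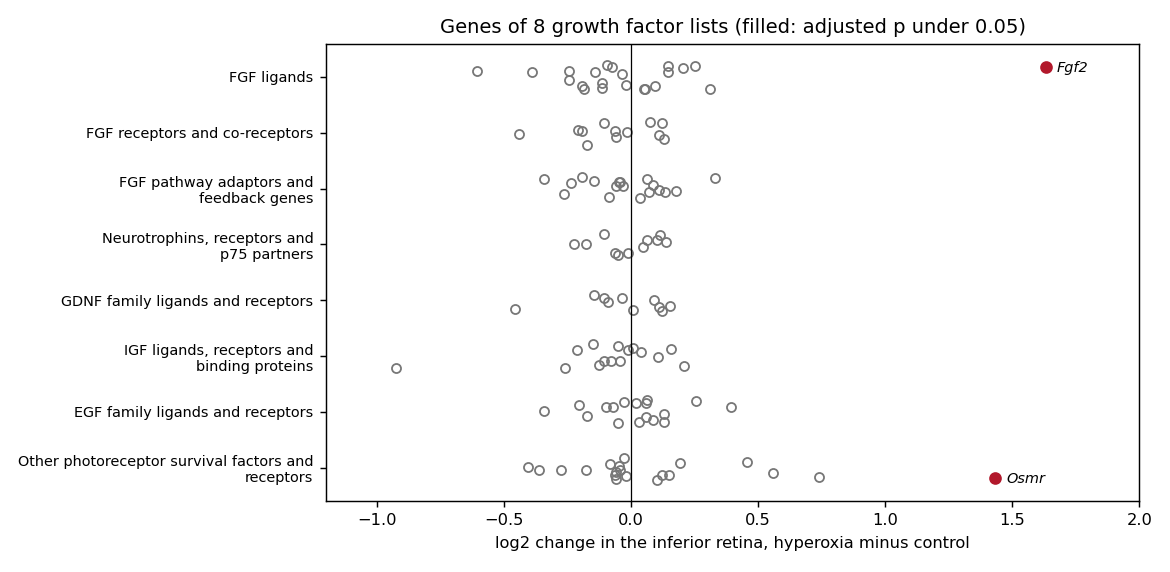
Log2 change between hyperoxia and control in the inferior retina (horizontal axis) for the measured genes of 8 lists (vertical axis); each point is a gene, and filled points are past an adjusted p of 0.05 (limma). *Fgf2* (1.63) and *Osmr* (1.43) are the filled points, and the open point farthest left is *Igfbp7* (-0.92).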

How the data were processed

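The authors imported the arrays in Partek with core probes, RMA background correction and median polish on the log2 scale, per the labels and methods; the sources used here give neither versions nor the step between arrays. The deposited log2 values of 28853 probe sets were used as they are. The platform annotation lists 1 symbol for 21789 of them, several for 1621 and none for 5443, and a gene with several probe sets was read from the one with the highest mean. By Entrez ID 21698 were matched to the GRCm38.p6 gene table, which changed 0 symbols.

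A mean for each of the 4 groups was fitted over 8 arrays with limma 3.58.1 in R 4.3.3 (4 residual and 4.47 prior degrees of freedom), with Benjamini-Hochberg adjustment over the whole table. The number of arrays limits the precision. Replicate arrays shared 6 to 15 identical values, so none was a copy. Members, gene lists and tests were chosen with earlier results of these data known. Genes named beside the members were every gene of a list past the test or else the 2 with the largest change in the inferior retina, and the 3 most like a called member among genes with a mean log2 of 6 or more; genes that overlap a member were added after their values were seen. The fit was tested on simulated data. Alternatives were omission of each array, median centring, quantile normalization, a robust prior, a variance trend, the replicate number as a block, the methods' t-test, a fit on only the arrays compared, a fit without dim probe sets (mean under 6), a fit on 1-symbol probe sets, and averages over the probe sets of a gene. Their effect on the glia and phagocyte lists, *Glul*, *Crym*, *Gfap* and *Ly86* was computed after the data were seen.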

Additional observations from a re-analysis of the deposited data

How the results depend on the processing

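Of 1107 values of the 9 members under the alternatives, 1036 kept their direction and side of the threshold, and none of the 62 that changed sign was called. The methods' t-test called 0 members in the inferior retina, 0 between the regions of exposed retinas and 0 over both regions, where limma called 1, and 2, 0 and 2 of all probe sets, against 142, 40 and 164. A variance trend called 1 member (*Fgf2*) for the difference between regions and 1 between regions over both oxygen conditions (adjusted p = 0.0258); omission of dim probe sets also gave 1 there (adjusted p = 0.0427). With an array left out, the members called between the regions of exposed retinas ran from 0 to 1; in the other comparisons each such count kept its value. Over all alternatives the adjusted p of *Fgf2* ran from 1.03e-05 to 0.114 in the inferior retina, from 0.0762 to 0.908 in the superior and from 0.0253 to 0.752 for the difference between regions; the cause of these shifts was not tested. Over all probe sets the calls in the inferior retina numbered 259 without dim probe sets, 374 with a variance trend, 39 with only the arrays compared and 35 to 168 with an array left out, and between the regions of exposed retinas 70, 84, 22 and 0 to 69. In control retinas, 0 were called between regions with all arrays. Without control inferior replicate 1, that group is replicate 2 alone, whose lens genes averaged 10.54, against 6.23 to 7.41 on the other arrays. The part of lens tissue in the regional differences of that fit was not tested.

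Same-numbered arrays of different groups had deviations that correlated from -0.0213 to 0.144. Only superior and inferior samples of the same oxygen condition could share animals, and these correlated at 0.104 in hyperoxia and 0.0723 in control samples. Such weak correlations cannot exclude pairing. The numbers were not taken to pair samples because no label links them. A block for replicate number spans all 4 groups, so it is no test of shared animals. With the replicate number as a block, *Fgf2* stayed the 1 member called in the inferior retina, 1 between the regions of exposed retinas and 1 over both regions, and 0 were called in the other comparisons; over all probe sets 127 and 25 were called in the inferior retina and between exposed regions, and *Osmr* was not called in the superior retina (adjusted p = 0.122).

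Quantile normalization turned the sign of *Hbegf* between exposed regions (-0.0132), *Bdnf* (0.0285) and *Ngfr* (-0.00193) between control regions, *Ngfr* for the difference of changes (0.00919), *Bdnf* (-0.0307) and *Gdnf* (-0.015) over both regions, and *Arhgap26*, which overlaps *Fgf1*, in the inferior retina (0.0132). Centring did so for *Igf1* in the inferior retina (-0.0187), *Hbegf* between exposed regions (-0.00114), and *Bdnf* (-0.0181) and *Gdnf* (-0.00741) over both regions. With an array left out, values that changed sign ran as follows. In the inferior retina they ran from -0.0243 to 0.17 for *Fgfr1*, -0.15 to 0.0454 for *Ntrk2*, -0.10 to 0.32 for *Gdnf*, -0.0698 to 0.0806 for *Igf1*, -2.36 to 0.52 for *Igfbp7*, -0.12 to 0.43 for *Igf1os*, -0.0585 to 0.0469 for *Arhgap26* and -0.25 to 0.0282 for *Gm5820*; the last 3 overlap members and were not called. In the superior retina they ran from -0.15 to 0.0331 for *Bdnf*, -0.0984 to 0.15 for *Ntrk2*, -0.18 to 0.11 for *Igf1* and -0.0124 to 0.21 for *Hbegf*. Between exposed regions they ran from -0.0346 to 0.21 for *Fgf1*, -0.00951 to 0.19 for *Fgfr1*, -0.00909 to 0.24 for *Ntrk2*, -0.11 to 0.16 for *Gdnf* and -0.11 to 0.14 for *Hbegf*. Between control regions they ran from -0.0939 to 0.089 for *Bdnf*, -0.38 to 0.0491 for *Gdnf* and -0.0899 to 0.20 for *Igf1*. For the difference of changes they ran from -0.20 to 0.042 for *Fgf1*, -0.20 to 0.0482 for *Ntrk2*, -0.0338 to 0.0241 for *Ngfr*, -0.0197 to 0.41 for *Gdnf* and -0.10 to 0.18 for *Igf1*. Over both regions they ran from -0.044 to 0.0474 for *Bdnf*, -0.0743 to 0.0481 for *Ntrk2*, -0.0943 to 0.12 for *Gdnf*, -0.0867 to 0.0575 for *Igf1* and -0.12 to 0.0066 for *Hbegf*, and between regions over both oxygen conditions from -0.17 to 0.0393 for *Gdnf*.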
